A study of Bos taurus with 32 samples.

Results

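bta-miR-2478 was measured on the array together with 671 other bovine miRNAs, and it was chosen because it had the largest difference between steers fed a high fat diet and steers fed a control diet among the 91 miRNAs detected on all 32 arrays. The values that chose it are its diet differences, which are therefore given as a description without a test. The arrays measured subcutaneous fat, taken from the back, and visceral fat, taken from around the kidney, of 16 Hereford × Aberdeen Angus steers, 8 fed the Control diet and 8 fed the High fat diet, so that each of the 4 groups held 8 arrays and each steer gave 1 array from each depot. Both diets were built on barley, the High fat diet held added flaxseed, all steers were about 1 year old when feeding started, and both diets were fed until slaughter. The samples are whole pieces of fat tissue, which hold adipocytes together with vessels, blood cells and connective tissue, and in such samples fewer cells of a type and less RNA per cell cannot be told apart.

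A mature miRNA is a short RNA cut from a hairpin precursor. Loaded into an Argonaute protein, it pairs through its seed, the bases near its 5′ end, with messenger RNAs and lowers their translation or stability. In adipose tissue miRNAs are known to act in the formation of new fat cells, in lipid storage and in inflammation. bta-miR-2478 carries one of the high numbers given to miRNAs that were named in cattle, and it has no established role in fat. Its gene, MIR2478, stands between NKAIN2, which encodes a protein that interacts with the sodium pump, and TRDN, which encodes triadin of the calcium release complex of muscle, and it overlapped neither in the RefSeq annotation of ARS-UCD2.0. The array works by joining a dye to the 3′ end of RNA in the sample and pairing the RNA with probes. A probe reads any labelled RNA that pairs with it, so whether the signal came from the mature miRNA or from a fragment of another RNA with the same sequence was not tested. The array was designed with 2 probes for bta-miR-2478, each printed as 10 spots, and its mature sequence is not shown here.

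Some facts of the arrays touch every value below. Each of the 4 groups lay on a slide of its own and both slides of a diet were scanned together, so a group cannot be told apart from its slide, nor a diet from its scan session. On a control array the signals of all miRNAs summed to between 26021 and 79290 scanner units, and on a high fat array to between 96888 and 366714. Between 115 and 176 miRNAs were detected on a control array and between 169 and 259 on a high fat array. The labelling spike-ins, RNAs added at a fixed amount before the dye, went the other way, with medians of 3835 on the control arrays and 3250 on the high fat arrays, and the local background was 24 to 32 on the former and 24 to 31 on the latter. The depot labels were checked with bta-miR-196a, a miRNA of a HOX cluster chosen from the study's account of the depots of these steers, on log2 intensities scaled to the 75th percentile of each array. In visceral fat it was detected on 8 of 8 arrays of each diet, at -2.73 to -1.68 (control) and -3.46 to -2.39 (high fat). In high fat subcutaneous fat it was detected on 8 of 8 arrays too, but at -6.96 or below.

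In control subcutaneous fat bta-miR-196a was detected on 3 of 8 arrays, and 1 of them, the array labelled as that of steer 108, went against its label. It read -2.43, within the range of the visceral arrays, while the other 7 read -6.04 or below. Several values that rest on this array are given with and without it, an alternative chosen after the data were seen. The array stays in all values where nothing else is said.

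bta-miR-2478 was far brighter on arrays of the high fat diet than on control arrays, in both depots, by a factor of 111 in subcutaneous and 73.1 in visceral fat (ratio of the group medians, before scaling). Its unscaled signal, the background-subtracted sum over its probes as the scanner software gave it, ran in control subcutaneous fat from 182 through a median of 750 to 1318. In high fat subcutaneous fat it ran from 60744 through 83053 to 122934. In control visceral fat it was 182 at the lowest, 916 at the median and 1731 at the highest array. In high fat visceral fat these values were 41854, 66970 and 115123. Every array of the high fat diet stood far above every array of the control diet, the lowest high fat array being 46.1 times the highest control array in subcutaneous fat and 24.2 times in visceral fat. The ratio of the geometric means, high fat over control, was 135 in subcutaneous fat and 84.5 in visceral fat. Without the array labelled as subcutaneous fat of steer 108, which was the highest of its group, the control subcutaneous arrays reached 1060, and the ratio was 150.

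**Figure D1:**
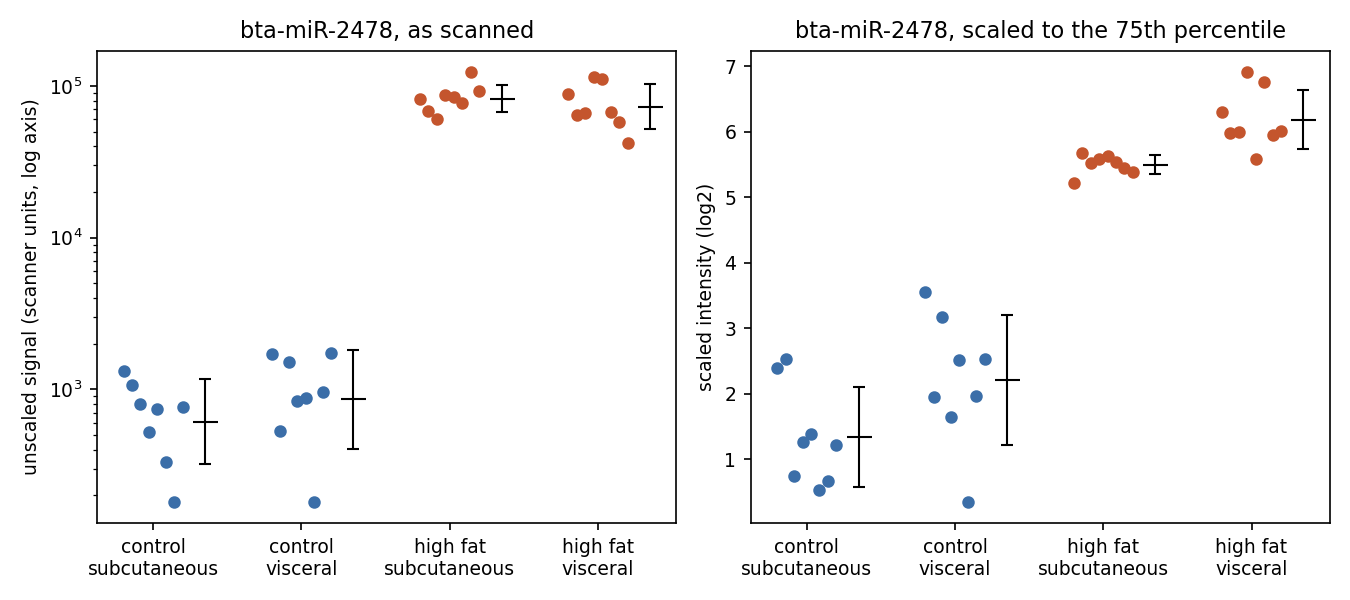
Level of bta-miR-2478 on each of the 32 arrays, left as the unscaled signal in scanner units on a log axis and right as the log2 intensity scaled to each array's 75th percentile. Points are arrays, the black bar is the group mean and the whiskers 1 SD (n = 8, on the log2 scale in both panels). No high fat array lies below 41854 scanner units and no control array above 1731.

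Since the arrays of the high fat diet were brighter as a whole, the level was also taken relative to the other miRNAs, by dividing each array by the 75th percentile of the 91 miRNAs detected on all arrays. This took 2.91 in subcutaneous and 2.42 in visceral fat off the log2 diet difference of every miRNA above the floor of the scaled values on all arrays, so a smaller scaled difference, in either direction, can have another sign before scaling. The scaled log2 intensity was 1.34 ± 0.76 (SD, n = 8) in control subcutaneous fat, with arrays from 0.53 through a median of 1.24 to 2.54. In high fat subcutaneous fat it was 5.50 ± 0.15 (SD, n = 8), from 5.22 through 5.53 to 5.68. The scaling thus left a smaller difference than the unscaled signal, and the 2 groups again did not overlap. In control visceral fat it was 2.21 ± 0.99 (SD, n = 8), from 0.35 through 2.24 to 3.56. In high fat visceral fat it was 6.19 ± 0.44 (SD, n = 8), from 5.59 through 6.0 to 6.91. The scaled difference, high fat minus control, was 4.16 in subcutaneous fat, a 17.9-fold ratio, and 3.98 in visceral fat, a 15.8-fold ratio. Without the array labelled as steer 108 it was 4.31 in subcutaneous fat, the control mean being 1.19 ± 0.68 (SD, n = 7). Not overlapping in this direction was common, as 33.0% of the 233 miRNAs tested did so in subcutaneous fat and 28.3% in visceral fat after scaling, and 67.4% and 44.2% before it. Since bta-miR-2478 was chosen by this contrast, nothing is read from these shares.

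The control arrays differed more among themselves than the high fat arrays. Among control steers the unscaled signal in subcutaneous fat spanned steer 405 at 182 and the array labelled as steer 108 at 1318, and in visceral fat steer 308 at 182 and steer 410 at 1731. The SD of the scaled log2 intensity was 0.76 and 0.99 in the control groups and 0.15 and 0.44 in the high fat groups. No array of any group stood apart from its 7 companions by Dixon's criterion, in 16 such tests over unscaled, scaled, share and probe values.

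bta-miR-2478 led the 91 miRNAs detected on every array in both depots, which is how it was chosen. Next to it stood bta-miR-30b-5p, with scaled differences of 3.16 in subcutaneous and 3.14 in visceral fat, and bta-miR-199b, with 2.91 and 2.90. These were the nearest miRNAs outside the choice, so the distance from bta-miR-2478 to the next was about 1 log2 unit in subcutaneous fat. The order of the 3 was the same with the unscaled signal, with the labelling spike-ins and with bta-miR-181a, the reference that the study used for its qRT-PCR. These differ from the scaled values by 1 factor for each array, which shifts all 3 differences alike, so the order could not change. On the scaled values the 91 miRNAs had a median difference of -0.91 (subcutaneous) and -0.80 (visceral). It was 2.01 and 1.63 on the unscaled values, so most of the other miRNAs were brighter on the high fat arrays too, and 59 of 91 (subcutaneous) and 56 of 91 (visceral) came out below 0 once scaled. Among the wider set of 233 miRNAs, detected on at least 8 arrays, 6 had a larger scaled difference than bta-miR-2478 in subcutaneous fat and 9 in visceral fat. Without the array labelled as steer 108 the first of these counts was 5, and bta-miR-30b-5p (3.23) and bta-miR-199b (2.77) still followed bta-miR-2478 among the 91.

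**Figure D2:**
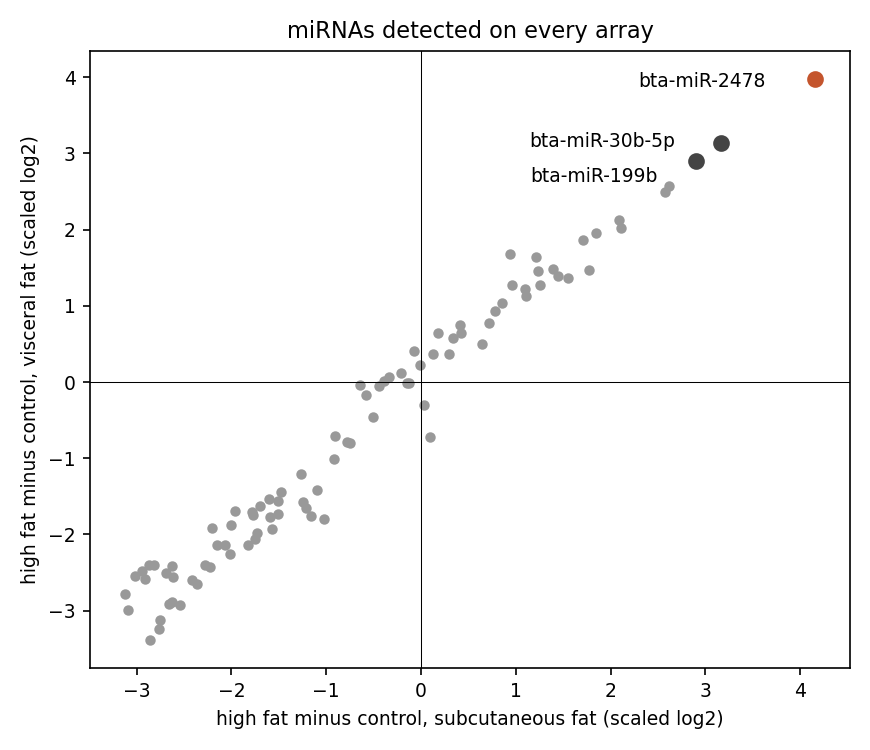
Scaled log2 difference, high fat minus control, in subcutaneous fat (x axis) and visceral fat (y axis) for the 91 miRNAs detected on every array, 1 point each, with no error shown. bta-miR-2478 is the top right point at 4.16 and 3.98, followed by bta-miR-30b-5p and bta-miR-199b.

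Both probes showed the difference. Probe A_38_P00017595 had a median spot intensity of 113 in control and 17165 in high fat subcutaneous fat, and of 143 and 13088 in visceral fat. Probe A_38_P00017596, the brighter of the pair, had medians of 995 and 107360 in subcutaneous fat and of 1238 and 85651 in visceral fat. With either probe alone the scaled diet difference was 4.55 (subcutaneous) and 4.33 (visceral) for A_38_P00017595, and 4.10 and 3.92 for A_38_P00017596. The probes were not in a fixed ratio, however. The brighter probe gave 6.81 to 9.49 times the intensity of the dimmer on the control arrays (median 8.68) and 5.11 to 7.08 times on the high fat arrays (median 6.32). All 640 spots were well above the local background and none of them was saturated. The brightest spot read 161147 against a scanner limit of 778799, and 23 spots carried an outlier mark of the scanner software. The spread over the 10 spots of a probe on 1 array, as a coefficient of variation, was between 2.10% and 13.9% for A_38_P00017595 and between 2.35% and 6.82% for A_38_P00017596, so spot error was small against the diet difference.

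**Figure D3:**
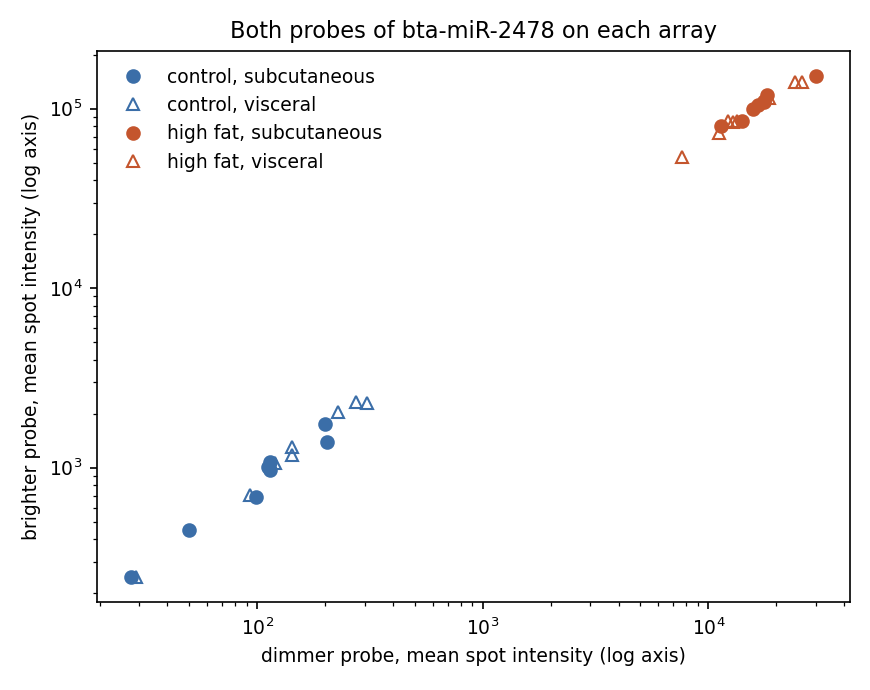
Mean spot intensity of the dimmer probe A_38_P00017595 (x axis) and the brighter probe A_38_P00017596 (y axis) of bta-miR-2478 on each of the 32 arrays, both on log axes. Arrays of the control diet (blue) and of the high fat diet (red) form separate groups on both probes, circles being subcutaneous and triangles visceral fat.

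bta-miR-2478 made up a large part of all miRNA signal on the high fat arrays. Its share of the summed signal of all miRNAs of the array was 0.629% to 3.54% (median 1.40%) in control subcutaneous fat and 0.648% to 5.26% (median 2.72%) in control visceral fat. On the high fat diet it was 31.0% to 38.3% (median 34.3%) in subcutaneous fat and 38.6% to 55.6% (median 43.3%) in visceral fat. The groups of the 2 diets did not overlap in either depot, as was so, in the same direction, for 41.6% of the miRNAs tested in subcutaneous and 30.9% in visceral fat. A share here is a share of fluorescence. Probes differ in how brightly they read a given amount of RNA, so it is not a share of molecules. Without bta-miR-2478 the summed signal of the remaining miRNAs was still higher with the high fat diet, 3.74 times in subcutaneous and 2.48 times in visceral fat (ratios of geometric means). In visceral fat, but not in subcutaneous fat, the diet groups overlapped in this remaining sum.

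The depots could be compared by a test, as the choice of the miRNA did not use that contrast. Relative to the other miRNAs, bta-miR-2478 had its higher level in visceral fat. Over both diets the scaled log2 difference, visceral minus subcutaneous, was 0.78 ± 0.23 (SE, 95% interval 0.31 to 1.25), with an adjusted p of 0.00863 by limma's moderated test with Benjamini-Hochberg adjustment over 233 miRNAs. Of these 34.8% passed in either direction and 15.9% as higher in visceral fat. Visceral fat was higher in 6 of 8 control steers and in 7 of 8 high fat steers. Without the array labelled as subcutaneous fat of steer 108 the difference was 0.85 (limma, adjusted p = 0.00347). In the control diet alone the difference was 0.87 ± 0.32 (SE), with values per steer from -0.59 to 2.43, and it missed the threshold by limma (adjusted p = 0.0626, 18.9% of the miRNAs passing). Fitted to the control arrays alone it missed it too (limma, adjusted p = 0.218, 95% interval -0.016 to 1.75, 7.89% of the miRNAs passing). With the steer as a block, which compares the depots within an animal, it passed (limma, adjusted p = 0.0296, 15.9% of the miRNAs passing), but not without the array labelled as subcutaneous fat of steer 108 (0.82, limma, adjusted p = 0.0521). In the fit of all 4 groups without a block it passed when the control subcutaneous array of steer 108 or of steer 111, or the control visceral array of steer 211 or of steer 308, was left out, with values of 1.02, 1.04, 0.95 and 1.13. Fitted to the control arrays alone without the array of steer 108 it missed the threshold again (limma, adjusted p = 0.116).

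In the high fat diet alone the scaled depot difference was 0.69 ± 0.32 (SE), from -0.04 to 1.32 per steer, and it missed the threshold in the fit of all 4 groups (limma, adjusted p = 0.123, 26.2% of the miRNAs passing). That fit shares the wide spread of the control groups. Fitted to the high fat arrays alone it passed (limma, adjusted p = 0.00394, 39.2% of the miRNAs passing). The depot difference was not shown to depend on the diet: the difference between diets was -0.18, with a 95% interval from -1.12 to 0.76 (limma, adjusted p = 0.953), where 1.72% of the miRNAs passed, and it was -0.33 (limma, adjusted p = 0.859) without the array labelled as steer 108. An interval of that width leaves room for a difference between the diets of up to about 1 log2 unit.

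The depot difference was one of level relative to the other miRNAs. Without any scaling it was 0.15 over both diets (limma, adjusted p = 0.644) and -0.18 in the high fat diet, where 4 of 8 steers had the higher unscaled signal in visceral fat. Scaled to the labelling spike-ins it was 0.41 over both diets (limma, adjusted p = 0.229) and 0.17 in the high fat diet (limma, adjusted p = 0.741). The spike-ins read 1650 to 3477 in high fat visceral fat and 3080 to 3520 in high fat subcutaneous fat. Scaled to bta-miR-181a the depot difference was 0.59 over both diets (limma, adjusted p = 0.0545). The signal of all remaining miRNAs was lower in high fat visceral fat, at 55034 to 175637 (median 86348), than in high fat subcutaneous fat, at 109074 to 243780 (median 154644), and the groups overlapped.

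The share of the summed signal showed the same order of the depots. In the high fat diet it was 34.4% ± 2.3 (SD, n = 8) in subcutaneous and 46.0% ± 6.1 (SD, n = 8) in visceral fat. The difference was 11.6 percentage points. It had p = 0.000155 by the two-sided exact permutation test and p = 0.00781 by the sign-flip test over steers. The first is the smallest that 8 arrays against 8 can give, and it leaves out the pairing by steer. Each depot of this diet lay on a slide of its own, so neither test can tell the depot from the slide. All 8 steers had the larger share in visceral fat, by 3.68 to 19.7 points. The depots did not overlap, but the gap was narrow, as steer 109 had 38.3% in subcutaneous and steer 302 had 38.6% in visceral fat. In this sense 2.58% of the 233 miRNAs were higher in visceral fat of high fat steers without overlap. Steers 204 and 303 had the highest shares in visceral fat, 55.6% and 55.1%. In the control diet the share was 1.70% ± 1.12 (SD, n = 8) in subcutaneous and 2.90% ± 1.64 (SD, n = 8) in visceral fat. That difference of 1.19 points had p = 0.111 by the two-sided exact permutation test and p = 0.0703 by the sign-flip test over steers. It missed the threshold by both, with visceral fat higher in 6 of 8 steers. Without the control visceral array of steer 308 it was 1.51 points (exact permutation test, p = 0.0438), and without the array labelled as subcutaneous fat of steer 108 it was 1.46 points (exact permutation test, p = 0.0600).

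**Figure D4:**
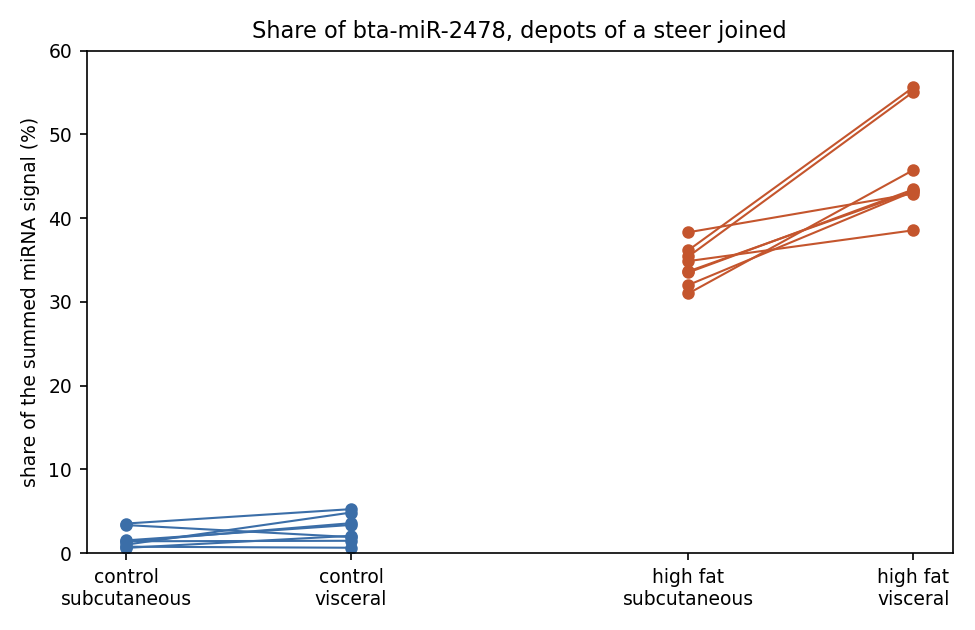
Share of bta-miR-2478 in the summed signal of all miRNAs of the array, in percent, with the depots of each steer joined by a line (8 steers a diet, control in blue and high fat in red). All 8 lines of the high fat diet go up from subcutaneous to visceral fat, while the control shares stay between 0.629% and 5.26%.

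The order of the 4 groups on the scaled values was therefore high fat visceral, high fat subcutaneous, control visceral and control subcutaneous. Both diets' neighbouring depots overlapped on this scale, and only between the diets was there a gap. On the unscaled values the high fat depots changed places, at mean log2 signals of 16.33 ± 0.30 (subcutaneous) and 16.15 ± 0.49 (visceral; SD, n = 8), which differed by less than their spread.

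A steer with much bta-miR-2478 in one depot was not shown to have much in the other. Over the 8 control steers the scaled levels of the depots had Pearson's r = 0.42 (exact permutation p = 0.300, adjusted over 6 relations p = 0.584) and Spearman's rho = 0.29 (exact permutation p = 0.501, adjusted p = 0.699). Without the 2 steers farthest from the median r was 0.41, and without steer 108 it was 0.17 (n = 7, exact permutation p = 0.691). Over the 8 high fat steers r was -0.06 (exact permutation p = 0.899, adjusted p = 0.899) and rho -0.24 (exact permutation p = 0.582, adjusted p = 0.699), and without the 2 farthest steers r was 0.19.

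Within the high fat diet the unscaled signal of bta-miR-2478 followed the summed signal of all other miRNAs on the same array. In subcutaneous fat Pearson's r of the log2 values was 0.93 (n = 8 arrays, exact permutation p = 0.00119, adjusted p = 0.00714) and rho 0.88 (exact permutation p = 0.00724, adjusted p = 0.0435), and r was 0.86 without the 2 arrays farthest from the median. In visceral fat r was 0.76 (n = 8 arrays, exact permutation p = 0.0248, adjusted p = 0.0745) and rho 0.79 (exact permutation p = 0.0279, adjusted p = 0.0838). It missed the threshold after adjustment and fell to 0.50 without the 2 farthest arrays, so it rested on them. In the control groups r was 0.29 in subcutaneous fat (n = 8, exact permutation p = 0.487, adjusted p = 0.584) and 0.32 in visceral fat (n = 8, exact permutation p = 0.463, adjusted p = 0.584). Their rho was 0.14 (exact permutation p = 0.752, adjusted p = 0.752) and 0.43 (exact permutation p = 0.299, adjusted p = 0.598), and without the 2 farthest arrays r was 0.19 and 0.27. In control subcutaneous fat r was 0.44 without the array labelled as steer 108 (n = 7, exact permutation p = 0.324). Both measures of an array share its labelling and hybridisation.

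The miRNAs whose scaled level was most like that of bta-miR-2478 over the 32 arrays were bta-miR-126, a miRNA of endothelial cells, with Pearson's r = 0.94, then bta-miR-107 (0.91), bta-miR-10b (0.90), bta-miR-103 (0.89) and bta-miR-30b-5p (0.89), out of 90 compared. The 2 diets form separate clusters of arrays, and such an r mainly reads the diet difference that chose bta-miR-2478. bta-miR-107 and bta-miR-103 are near-identical paralogs, so their probes may share signal. After the mean of each group was taken off, the 5 highest values were those of bta-miR-2332 (0.70), bta-miR-30d (0.68), bta-miR-103 (0.66), bta-miR-361 (0.62) and bta-miR-99b (0.56), with a median of 0.05 over the 90. bta-miR-103 alone stood in both lists. When the array labelled as steer 108 was left out, the same 5 miRNAs led in each case, at 0.94 to 0.89 over the arrays and 0.77 to 0.55 after the group means were taken off. These coefficients are descriptions over 32 arrays of 16 steers that share the scaling of each array. The scaled diet difference of bta-miR-2332 was -1.96 in subcutaneous and -1.69 in visceral fat, and that of bta-miR-99b -0.91 and -0.71, opposite in sign to bta-miR-2478 on this scale.

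The other miRNAs with cattle numbers, bta-miR-2281 and above, mostly went the other way from bta-miR-2478 on the scaled values, though not before scaling. Of 303 such miRNAs on the array 80 were detected at least once and 53 were tested. With the high fat diet, 2 of the 53 in subcutaneous fat passed the test as higher and 39 as lower (limma), where 41.6% of all 233 miRNAs were higher and 34.3% lower. In visceral fat 3 were higher and 30 lower, against 42.1% and 29.6% of all. When the array labelled as steer 108 was left out, the counts in subcutaneous fat were 4 higher and 42 lower. Their median scaled difference was -1.48 in subcutaneous and -1.21 in visceral fat, beside 0.08 and 0.16 over the 232 miRNAs tested other than bta-miR-2478. The sign of this median turned without scaling (1.17 and 0.58, where the median of all was 2.48 and 1.68), with the labelling spike-ins (1.42 and 0.66) and with bta-miR-181a (0.39 and 0.11), while it stayed below the median of all miRNAs under every setting tried. The distance to that median ran from -2.78 (75th percentile over all miRNAs, subcutaneous) to -0.22 (normexp background correction, visceral). Together the 303 held 8.36% to 18.0% of the summed signal in control subcutaneous fat and 2.36% to 7.58% in high fat subcutaneous fat. In visceral fat they held 4.10% to 9.96% (control) and 1.25% to 3.87% (high fat). The summed signal holds bta-miR-2478 itself, at 0.629% to 5.26% on control and 31.0% to 55.6% on high fat arrays. Its own larger share thus lowers the shares of the 303 on the high fat arrays. Between the depots 7 of the 53 were higher and 16 lower in visceral fat over both diets by limma. Of all 233 miRNAs 37 were higher and 44 lower. The median difference of the 53 was -0.26 beside 0.00 over all. Without the array labelled as steer 108 the counts were 7 and 18, where 83 of the 233 passed in either direction.

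Lists of markers of other cell types were read on the same scaled values. Several of their members were detected with the high fat diet and hardly with the control diet, where fewer miRNAs were detected in all. The median number of miRNAs detected was 147.5 on the control arrays and 229 on the high fat arrays. How many of all miRNAs had such a pattern was not counted, so nothing is read from these detections. The summed scaled level of the 2 endothelial miRNAs (bta-miR-126 and bta-miR-126*) was 0.578 to 1.5 in control and 3.57 to 4.84 in high fat subcutaneous fat. In visceral fat it was 0.863 to 2.42 and 5.09 to 8.23, so the diets did not overlap, nor did the depots in the high fat diet. Between the diets the same was so, in this direction, for 33.0% of the 233 single miRNAs tested in subcutaneous and 28.3% in visceral fat. Between the depots no such share was taken on this scale. bta-miR-126 was detected on all 32 arrays, and bta-miR-126* on 5 of 16 control and 16 of 16 high fat arrays. Of the 6 miRNAs of fat tissue, bta-miR-143 was detected on 5 of 16 control and 16 of 16 high fat arrays. No array lacked a detection of any other member of this list. The summed level of the 6 was 2.42 to 4.32 (control) and 3.46 to 4.57 (high fat) in subcutaneous fat. In visceral fat it was 3.59 to 6.33 and 4.46 to 7.65. Of the 4 leukocyte miRNAs bta-miR-223 and bta-miR-155 were detected on all 32 arrays, bta-miR-142 on 0 of 16 control and 16 of 16 high fat arrays and bta-miR-150 on 1 array. The summed level of the list was 0.164 to 0.455 (control) and 0.223 to 0.992 (high fat) in subcutaneous fat. In visceral fat it was 0.174 to 0.404 and 0.203 to 0.296. The red cell list (3 miRNAs) summed to 0.109 to 0.198 and 0.0690 to 0.135 in subcutaneous and to 0.191 to 0.368 and 0.0674 to 0.134 in visceral fat, with the lower medians on the high fat diet. Of that list bta-miR-144 was detected on 1 array, bta-miR-451 on 5 of 16 control and 16 of 16 high fat arrays and bta-miR-486 on all. Of the muscle list 4 of 5 miRNAs were on the array. bta-miR-1 was detected on 1 of 16 control and 16 of 16 high fat arrays, bta-miR-133a on 1 and 14, bta-miR-133b on 6 and 16, and bta-miR-206 on 2 and 1. Their sum was 0 to 0.0291 (median 0) in control and 0.0178 to 0.228 (median 0.0366) in high fat subcutaneous fat, and 0 to 0.133 (median 0.0063) and 0.0475 to 0.0912 (median 0.0596) in visceral fat. Of the kidney list bta-miR-194 was detected on 0 of 16 control and 16 of 16 high fat arrays, bta-miR-192 on 0 and 14, bta-miR-200b on 1 high fat array and bta-miR-200c on none. Their sum was 0 on every control array, 0.0139 to 0.0267 in high fat subcutaneous and 0.0179 to 0.0379 in high fat visceral fat. In this list the diets differed by detection alone. The control arrays were dimmer, so a sum of 0, here and in the muscle list, means not detected and does not measure a level. The liver miRNA bta-miR-122 was detected on 3 arrays, all of visceral fat, at up to 0.427. The part of these cell types in the level of bta-miR-2478 was not tested.

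Control probes named hur on the array were brighter on the high fat arrays as well. What RNA they read is not given in the sources used here. hur_6 read 82.7 to 502 in control and 6142 to 15623 in high fat subcutaneous fat. In visceral fat it read 43.8 to 799 and 2775 to 10182, so its diet groups did not overlap in either depot. Before scaling the same was so, in this direction, for 67.4% of the 233 miRNAs tested in subcutaneous and 44.2% in visceral fat. The ratio of the geometric means was 35.5 in subcutaneous and 20.1 in visceral fat, against 135 and 84.5 for bta-miR-2478 and 1.87 and 1.46 for bta-miR-181a, all unscaled. For the 75th percentile of the 91 miRNAs detected on all arrays it was 7.53 and 5.36. It was 12.3 and 5.54 for hur_1, 6.42 and 3.22 for hur_2, and 6.27 and 2.36 for hur_4. Within groups, arrays with more bta-miR-2478 tended to have more hur_6 signal. Over the 32 arrays the correlation of their scaled deviations from the group means was 0.81, above that of each of the 90 miRNAs compared, and it was 0.74 for hur_1, 0.66 for hur_2 and 0.63 for hur_4. Leaving out the array labelled as steer 108 gave 0.81 for hur_6, again above the 90 miRNAs. These probes were singled out after their values were seen. Their part in the level of bta-miR-2478 was not tested.

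The size of the diet difference depended on how arrays were made comparable. It was 7.07 in subcutaneous and 6.40 in visceral fat without scaling, 7.32 and 6.85 relative to the labelling spike-ins and 6.17 and 5.86 relative to bta-miR-181a. Relative to the 75th percentile of all miRNAs of the array it was 0.017 and -0.47, so the direction turned in visceral fat. On 7 of 8 control subcutaneous and 8 of 8 control visceral arrays fewer than 168 miRNAs were detected, which is 25% of those on the array, and there that percentile falls on a miRNA that was not detected. Every high fat array had more than 168. In the deposited table, in which 14 of the 16 control arrays were not shifted and the high fat arrays were shifted by -2.67 to -5.05 on the log2 scale, it was 2.76 and 2.91.

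**Figure D5:**
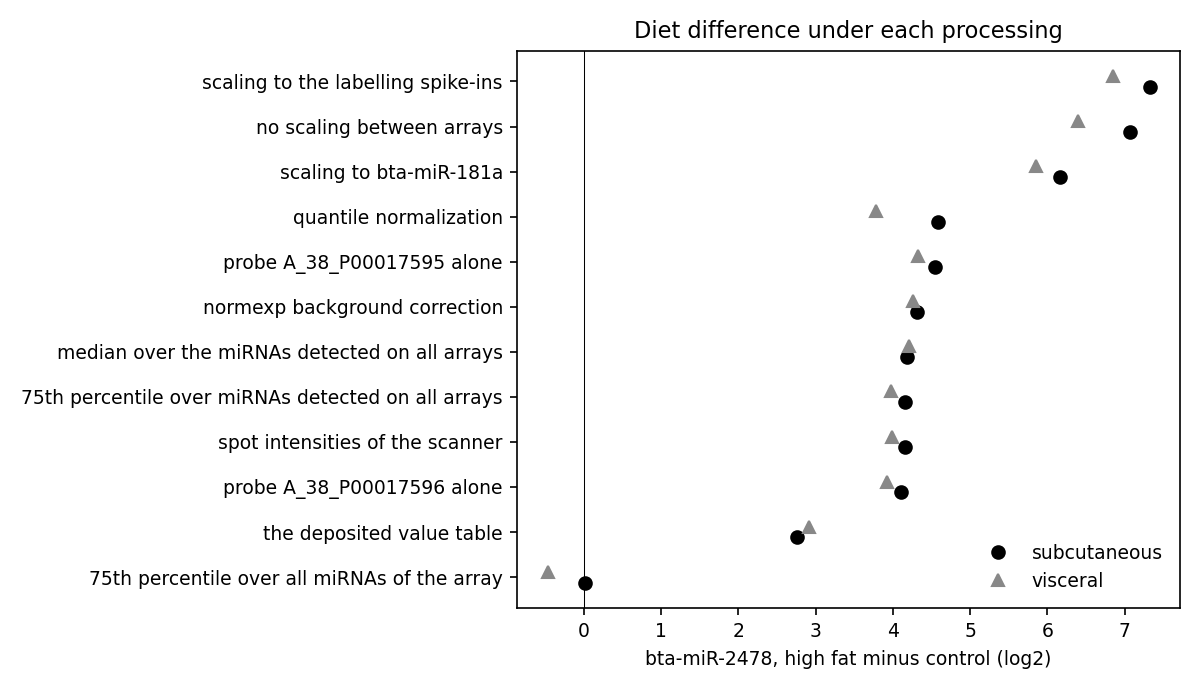
Difference of bta-miR-2478 in log2, high fat minus control, under each processing of the arrays (rows), for subcutaneous fat (black circles) and visceral fat (grey triangles), without error bars. All settings lie between 2.76 and 7.32 except the 75th percentile over all miRNAs of the array, at 0.017 and -0.47.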

How the data were processed

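Total RNA of each tissue sample was hybridised by the authors to 1 Agilent miRNA array, and the scanner files were made with Feature Extraction 10.7.3.1. The deposited intensities used here are, per the file headers, background subtracted and summed over the probes of a miRNA, unscaled, with a mark for detection. The deposited log2 table (GeneSpring) matched the scanner values for 244 of 244 features within 0.0001 after 1 shift for each array, and was used as an alternative. Its column medians ran from 0 to 3.46, and why the shifts differ is not given in the sources used here.

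For scaling, the values of an array were divided by their 75th percentile over the 91 miRNAs detected on all 32 arrays, floored at the common lowest value (log2 -7.22) and log2 transformed. miRNAs detected on at least 8 arrays (240) and not at the floor on every array (233 left) were fitted with limma 3.58.1 in R 4.3.3, 4 group means and Benjamini-Hochberg adjustment, with an adjusted p threshold of 0.05. A simulated set of 233 miRNAs with 60 changed between the depots of the high fat diet returned 56 of them, with 3 unchanged miRNAs called. It drew independent normal values with 1 SD for each miRNA in all 4 groups. The unequal spread of the diets, the pairing by steer and the floor were thus not part of it. Shares and correlations were tested by exact permutation, and shares also by a sign-flip test over steers. Separate animals were the replicates. The number of a steer names 1 animal in both depots and so pairs them, although the correlation of its depots' deviations from the group means ranged from -0.72 to 0.65 over 16 steers. Named miRNAs were bta-miR-2478, the 2 next largest diet differences, the 5 highest correlations of each kind, bta-miR-181a and bta-miR-196a. The miRNA and all lists were chosen with earlier results of these data known. miRNAs with the same seed were not analysed here. The arrays have no counts, so their number limits the precision.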

Additional observations from a re-analysis of the deposited data

Results flagged for a closer look

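The control probes named hur, which no comparison of the study used, were brighter with the high fat diet. The groups of subcutaneous fat did not overlap, and the median on the high fat diet was 8.72 times that on the control diet for hur_1, 5.40 times for hur_2, 5.58 times for hur_4 and 23.2 times for hur_6. In visceral fat hur_6 alone of the 4 did not overlap, with a ratio of medians of 15.3. Before scaling, 67.4% of the 233 miRNAs tested did not overlap in this direction in subcutaneous fat and 44.2% in visceral fat. The 75th percentile of the 91 miRNAs detected on all arrays had ratios of medians of 7.27 (subcutaneous) and 6.15 (visceral).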

How the results depend on the processing

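The diet difference in subcutaneous fat and the depot differences in the control diet and over both diets kept their direction under every setting tried, but the calls between the depots changed with the scaling and with the spread used in the test. The diet difference (subcutaneous, visceral) was 7.07 and 6.40 without scaling, 6.17 and 5.86 with bta-miR-181a, 7.32 and 6.85 with the labelling spike-ins, 2.76 and 2.91 in the deposited table, and 0.017 and -0.47 with the 75th percentile over all miRNAs of the array. Leaving out 1 array gave 4.04 to 4.33 and 3.71 to 4.17. The depot difference over both diets missed the threshold without scaling (0.15), with the percentile over all miRNAs (0.94), bta-miR-181a (0.59), the labelling spike-ins (0.41), quantile normalization (0.40) and the deposited table (0.64), with limma's adjusted p from 0.0545 to 0.644. It passed without any 1 array (0.68 to 0.91). The slide as a random block bears on nothing here, as each slide held 1 group. In the control diet it passed with spot intensities (0.89), with only the 91 miRNAs (0.87) and with the steer as replicate block (0.87), and ran from 0.67 to 1.13 without 1 array. In the high fat diet it turned to -0.18 without scaling, and passed with normexp (0.70), in the methods' t-test after Benjamini-Hochberg adjustment (0.69) and in a fit of the 2 groups (0.69), with 0.58 to 0.77 without 1 array. Under quantile normalization it was 0 in the high fat diet. That method gives each rank the same value on every array, so this 0 reads rank and not level. The 0.40 over both diets is the mean of this 0 and of 0.80 in the control diet. The interaction, which passed under no setting, turned to 0.016 with the median of the 91 miRNAs and to 0.15 in the deposited table, and ran from -0.45 to 0.012 without 1 array. The share difference was 0.86 to 1.51 points (control) and 10.2 to 12.7 points (high fat) without 1 array. The steer block changed no call but that of the control depots, and that change was lost without the array labelled as subcutaneous fat of steer 108 (0.82, limma, adjusted p = 0.0521). The correlation of the depots turned to -0.029 in control steers with the deposited table, and in high fat steers to 0.61 with the labelling spike-ins, 0.11 with the deposited table and 0.19 without the 2 farthest steers, none past the threshold. The causes were not tested beyond what is stated.

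Counts of miRNAs past the threshold between the depots moved too. In the control diet the 44 of 233 became 27 without scaling, 9 with the percentile over all miRNAs, 12 with the spike-ins, 8 with normexp, 29 of the 91, 15 of 190 in a fit of the 2 groups, and 4 of 190 (Bonferroni) or 21 of 190 (Benjamini-Hochberg) in the methods' t-test. In the high fat diet the 61 became 129, 9 and 178 (no scaling, percentile over all, normexp), 14 of 221 in the deposited table and 22 of 227 in the methods' t-test with Bonferroni correction. Over both diets the 81 became 12 and 193 (percentile over all, normexp) and 37 of 221 in the deposited table.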
